A study of Mus musculus with 33 samples.

Results

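Replication-dependent histone genes encode the core histones H2A, H2B, H3 and H4 and the linker histone H1 that package newly made DNA. They were taken as every row of the deposited table with a gene symbol that begins with Hist followed by a cluster number from 1 to 4, which gave 62 of 56414 rows. The rows were 6 for H1, 16 for H2A, 17 for H2B, 9 for H3, 12 for H4 and 2 that join an H2A gene with an H3 gene. They carried 64 histone symbols, and all 64 were found in the GENCODE M21 annotation of GRCm38. On chromosome 13 lay 50 rows, on chromosome 3 lay 8, on chromosome 11 lay 3 and on chromosome 6 lay 1.

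The libraries came from tumour-free female C57Bl/6 mice without an engineered allele in the labels, and the study asked how nicotinamide (NAM, a form of vitamin B3) acts on the immune system. Mice drank water with 0.5% NAM over 1, 3 or 14 days, and control mice were left untreated. Among 33 libraries of poly(A)-selected RNA, 20 are labelled spleen, with 5 untreated and 5 at each of 1, 3 and 14 days. The other 13 are labelled lymph node and comprise 3 untreated libraries, 2 from day 1, 4 from day 3 and 4 from day 14. The labels do not say that the replicates of a group were separate animals, so p-values measure only the spread between these libraries.

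Cells make most histone mRNA during S phase, when the coactivator Npat switches on the clustered genes. The typical histone mRNA has no poly(A) tail and ends shortly after a stem-loop that is bound by Slbp, so selection on poly(A) recovers little of it. Some of these genes also carry a conventional poly(A) signal further downstream and give polyadenylated mRNA, which is known from cells that have left the cycle.

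The ends of the annotated transcripts show both kinds of 3' end, and these sequences are shown because the library preparation selects on them. The stem-loop was searched on the transcript strand as 16 bases that read GG, any 2 bases, CTT, any base, T, any base, AG, any 2 bases and CC, and 42 of 64 genes held them, against 0.356% of 58797 protein-coding transcripts. The first group of lines gives the stem-loop in capitals with 5 bases on each side, for the highest H1, H3 and H4 rows and for the head-to-head pair Hist1h2ae and Hist1h2bg.
Hist1h1c: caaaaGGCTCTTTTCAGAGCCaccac
Hist1h3c: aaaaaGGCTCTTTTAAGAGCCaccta
Hist1h4i: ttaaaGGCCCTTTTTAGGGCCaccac
Hist1h2ae: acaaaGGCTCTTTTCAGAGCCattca
Hist1h2bg: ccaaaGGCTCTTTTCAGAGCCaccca
Annotated bases after the stem-loop numbered 840 in Hist1h1c, 151 in Hist1h2ae, 155 in Hist1h2bg, 74 in Hist1h3c and 330 in Hist1h4i. The poly(A) signal AATAAA lay in the last 40 bases of 13 of the 64 genes, against 39.3% of protein-coding transcripts, and 11 genes held both features. The next lines give the last 30 bases with AATAAA in capitals for the 3 rows that NAM changed in the libraries labelled spleen.
Hist1h1c: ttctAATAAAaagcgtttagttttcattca
Hist1h2ae: ccAATAAAtgggtcaatttttttcagattc
Hist2h2be: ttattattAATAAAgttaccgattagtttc
The annotated Hist2h2be transcript held no stem-loop letters, whereas Hist1h1c and Hist1h2ae held both ends. Of the H3 genes, Hist2h3c1 alone held the poly(A) signal in this window, and its row is joined with Hist2h2aa1.

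The genes stand close together, and 11 pairs of neighbours pointed away from each other with 172 to 659 bases between them. In 10 of these pairs an H2A gene faced an H2B gene. Hist1h2ae (chr13:23570517-23571221, minus strand) and Hist1h2bg (chr13:23571400-23571863, plus strand) are such a pair, and the 174 bases at chr13:23571222-23571395 (mm10, plus strand, RefSeq) are printed with the searched motifs in capitals.
Between Hist1h2ae and Hist1h2bg: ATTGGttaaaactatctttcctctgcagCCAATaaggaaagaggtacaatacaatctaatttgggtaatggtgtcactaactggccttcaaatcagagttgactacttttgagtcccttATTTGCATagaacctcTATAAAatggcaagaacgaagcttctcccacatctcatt
Motifs were searched on both strands as CCAAT (the box bound by NF-Y), TATAAA (the TATA box) and ATTTGCAT (the octamer bound by Pou2f1), over the 250 bases before the start of 57 histone genes with a RefSeq entry. CCAAT was in 84.2% of them, against 33.8% of 32851 promoters of all genes. TATAAA was in 47.4% against 12.4%, and ATTTGCAT was in 22.8% against 1.60%. The octamer letters were in 7 of 17 H2A promoters and 6 of 14 H2B promoters, and in 0 of 6 for H1, 0 of 9 for H3 and 0 of 11 for H4. The 250 bases before Hist1h1c (chr13:23738557-23738806, plus strand), a row that rose after 1 and 3 days, held CCAAT alone of these 3 motifs.
Hist1h1c: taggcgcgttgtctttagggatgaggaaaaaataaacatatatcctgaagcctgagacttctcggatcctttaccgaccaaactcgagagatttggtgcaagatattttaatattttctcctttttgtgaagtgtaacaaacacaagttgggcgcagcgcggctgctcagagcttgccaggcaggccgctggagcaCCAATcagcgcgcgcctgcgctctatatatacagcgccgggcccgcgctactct

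The tissue labels did not match the markers. Glycam1, which encodes a mucin that high endothelial venules of lymph nodes make, had 108167 to 214210 normalised counts in the libraries labelled spleen and 1.59 to 12.4 in those labelled lymph node. Spic, needed for red pulp macrophages of the spleen to form, went the other way in every library (774 to 1295 against 6117 to 10491). The sets are therefore called by their label only, the spleen set and the lymph node set. They were scaled separately, and tests were made within a set.
Libraries of the spleen set held 18325061 to 54830743 whole reads and those of the lymph node set 30424968 to 46733974. In the spleen set depth went with group, since every 3-day library (43632016 or more) was deeper than every untreated (31486631 at most) and every 1-day library (32066627 at most). In the spleen set the first principal component (30.1% of variance) ran from untreated replicates 1 and 3 and 14-day replicate 1 at one end to 1-day replicate 2 at the other, and the second (13.6%) set the 1-day libraries and 3-day replicates 2 to 5 apart from the untreated and 14-day libraries and 3-day replicate 1.

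Histone rows made up a small share of the reads. Of each 1000000 reads they took 127 to 246 in the libraries labelled spleen and 191 to 229 in those labelled lymph node. Most rows were near the detection limit, with a median of the row means of 6.38 normalised counts in the spleen set and 10.3 in the lymph node set. A mean of 10 normalised counts or more, the filter for the tests, was met by 20 of 62 rows in the spleen set and by 32 of 62 in the lymph node set. By type the rows that passed were 2 and 3 for H1, 4 and 7 for H2A, 6 and 9 for H2B, 1 and 3 for H3, 6 and 8 for H4, and 1 and 2 for the joined H2A and H3 rows.

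The same 8 rows exceeded a mean of 100 in both sets and held 92.1% and 91.1% of the summed means. They were Hist1h2bc, Hist1h1c, Hist2h2be, Hist1h4i, Hist3h2ba, Hist2h2aa2, the joined row Hist2h2aa1 // Hist2h3c1 and the row Trim17 // Hist3h2a. The last of these spans the non-histone gene Trim17, so its level cannot be assigned to the histone.
Rows whose transcript ends in a poly(A) signal were 13 of 62 and held 65.5% and 68.6% of the summed means in the spleen and lymph node sets. These include Trim17 // Hist3h2a and the joined row Hist2h2aa1 // Hist2h3c1, in which the H3 gene alone has the signal. Over the 59 rows of 1 symbol the share was 49.3% and 56.6%. Of the 13 rows, 8 and 9 passed the filter in the spleen and lymph node sets, against 12 and 23 of the 49 rows without the signal. The median level per kilobase of exon was nonetheless close, at 8.54 with the signal and 8.03 without in the spleen set, and 9.81 and 11.1 in the lymph node set. Rows with the signal also had more sequence of their own, with a median of 93.3% of their 75-base windows found in no other gene against 54.3%.

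**Figure D1:**
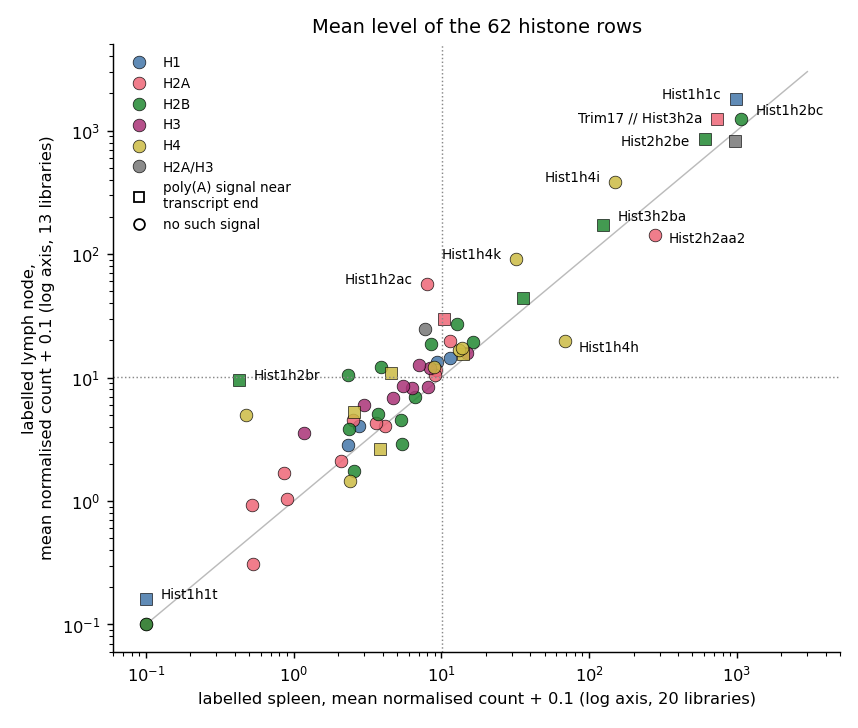
Mean normalised count of each of the 62 histone rows in the 20 libraries labelled spleen (x axis) and the 13 labelled lymph node (y axis), both log axes with 0.1 added; colours give the histone type, squares mark a poly(A) signal near the transcript end, dotted lines the filter of 10 and the grey line equal values. The rows named at the upper right exceed 100 in both, and most of the others lie near or under the filter.

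Per kilobase of row length, Hist1h1c, which encodes the linker histone H1.2, was the highest H1 row, at 627 in the spleen set and 1162 in the lymph node set. Hist2h2be was the highest H2B row by this measure, at 224 and 316, and Hist1h4i the highest H4 row, at 206 and 526.1. Per kilobase of exon Hist1h2bc, whose row spans a long intron, stood above Hist2h2be, at 919 and 1072. Hist1h3c led the H3 rows with only 23.4 and 25.0 per kilobase of row. Hist2h2aa2 led the H2A rows with 464 and 237, and the joined row Hist2h2aa1 // Hist2h3c1 stood at 324 and 271.
The testis members were absent or nearly so. Hist1h2aa and Hist1h2ba had 0 reads in all 33 libraries, and the testis linker histone gene Hist1h1t had 0 reads in the spleen set and 1 read in 1 of 13 libraries in the lymph node set. A count of 0 allows up to 0.00462 in each 1000000 reads over the libraries labelled spleen and 0.00626 over those labelled lymph node, counting error only.
Hist1h2br had reads in few libraries. It stood at 56.3 in lymph node 14-day replicate 1, 43.3 and 23.9 in lymph node 3-day replicates 2 and 4, 6.54 in spleen 14-day replicate 1, and 0 in the rest.

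Near-identical copies limited what a single row measured. Over the 64 genes a median of 64.2% of 75-base windows, the read length, occurred in no other gene, and 23 genes had fewer than 50% of their own. All 454 windows of Hist2h2aa2 (chr3:96239779-96240374) also occurred in Hist2h2aa1, and 88.7% of the 512 windows of Hist2h2aa1 occurred in Hist2h2aa2. No read of Hist2h2aa2, and only a minor part of those of Hist2h2aa1, can therefore be assigned to its copy. The stretch around their stem-loop is the same in both.
Hist2h2aa1: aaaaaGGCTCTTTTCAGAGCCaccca
Hist2h2aa2: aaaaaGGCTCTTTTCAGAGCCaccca
Hist2h2aa2 took from 0.583% to 38.7% of its sum with the joined row Hist2h2aa1 // Hist2h3c1 among the libraries labelled spleen, with a median of 24.5%, and from 3.61% to 30.7% among those labelled lymph node, with a median of 14.6%. The joined row also holds reads of the H3 gene Hist2h3c1, so these are shares of the 2 rows and not of the H2A copies alone. Within the spleen 14-day group alone its 5 values were 290, 7.84, 354, 131 and 361. The coefficient of variation over libraries labelled spleen was 46.9% for Hist2h2aa2, 22.4% for the joined row and 17.7% for their sum, and in the lymph node set it was 59.1%, 16.8% and 12.2%. The sum was thus steadier than either row, and a change in Hist2h2aa2 alone was not read as one.

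**Figure D2:**
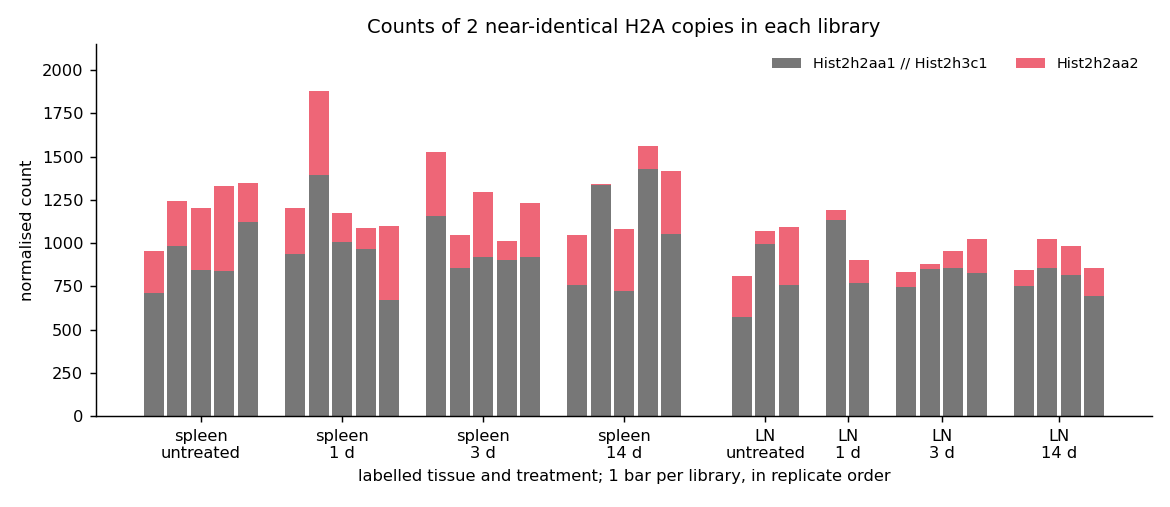
Normalised counts of Hist2h2aa1 // Hist2h3c1 (grey) and Hist2h2aa2 (red) stacked in each of the 33 libraries, in replicate order within each group of a label. The red share runs from 0.583% to 38.7% in the spleen set with no group standing apart.

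After 1 day of NAM, 3 of the 20 histone rows tested in the spleen set rose and 0 fell. These were the linker histone gene Hist1h1c, the H2B gene Hist2h2be and the H2A gene Hist1h2ae. Of all rows tested, 8.56% rose and 8.05% fell in this comparison (limma, Benjamini-Hochberg adjusted p under 0.05), so the share of histone rows that rose, 3 of 20, was not far above that of all rows and is read as a result on these rows and not on histone genes as a group.
Hist1h1c (chr13:23738804-23740366) had 606, 711, 816, 862 and 809 normalised counts in the untreated libraries. It had 1052, 1390, 1162, 1158 and 1052 after 1 day. Every treated library lay above every untreated one, with means of 761 ± 103 (SD, n = 5) untreated and 1163 ± 138 (SD, n = 5) treated. The log2 fold change was 0.61 ± 0.13 (SE), with an adjusted p of 0.00449 from limma.
Hist2h2be (chr3:96221072-96223778) had 450, 504, 526.5, 532 and 488 untreated and 735, 638, 683, 675 and 594 after 1 day. These groups did not overlap either. The means were 500 ± 33.0 (SD, n = 5) untreated and 665 ± 52.8 (SD, n = 5) treated, and the log2 fold change was 0.41 ± 0.09 (SE), with an adjusted p of 0.00462 from limma. All of its 75-base windows were its own, so copies share none of these reads.
Hist1h2ae was a row of few reads, with 0, 0, 2.97, 3.73 and 10.3 untreated and 27.9, 16.5, 14.4, 11.1 and 16.4 after 1 day. The lowest treated library lay just above the highest untreated one. The means were 3.40 ± 4.22 (SD, n = 5) and 17.3 ± 6.34 (SD, n = 5), and the log2 fold change on the scale of log2(normalised count + 1) was 2.58 ± 0.55 (SE), with an adjusted p of 0.00385 from limma. It rested on 0 to 10 whole reads per untreated library and 8 to 29 per treated library, and 65.6% of its windows were its own. Its mean over the spleen set, 10.4, met the filter only through treated groups and was 8.05 without the 1-day libraries, so its call depends on which rows are tested. It passed with no filter (adjusted p = 0.00755, limma) and was not tested with a filter of 50 or on thinned reads, where Hist1h1c and Hist2h2be were the 2 rows called.

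The 3 rows whose groups did not overlap were the 3 rows called, and 6.42% of all rows tested had every 1-day library above every untreated one, with 5.47% below. Hist1h2bg, which shares the printed stretch with Hist1h2ae, had 8.66, 7.53, 7.42, 17.4 and 13.4 untreated and 14.4, 14.5, 16.3, 23.6 and 31.8 after 1 day. Its groups overlapped and its log2 difference of 0.84 did not pass (adjusted p = 0.239, limma).
Hist1h2bc, the H2B row with the most counts, had 538, 1004, 785, 957 and 959 untreated and 995, 2023, 1158, 1274 and 951 after 1 day, with overlapping groups and an adjusted p of 0.0806 (limma). Replicate 2 was far above the rest here, and it was the highest of the 20 libraries in 6 of the 20 rows tested. Untreated replicate 1 was the lowest in 6 of the 20. The same 3 rows were called without untreated replicate 1, with log2 fold changes of 0.54 for Hist1h1c, 0.37 for Hist2h2be and 2.20 for Hist1h2ae. Without 1-day replicate 2 the same 3 rows were called, with log2 fold changes of 0.55 for Hist1h1c, 0.42 for Hist2h2be and 2.58 for Hist1h2ae.
The other types did not pass. The 1 H3 row tested, Hist1h3c, had a log2 difference of 0.62 (adjusted p = 0.252, limma), and the 6 H4 rows ran from -0.68 to 0.87 with a median of 0.17. Over the 20 rows the median log2 difference was 0.32, against 0.01 over all rows tested, and 4 of the 20 had an unadjusted p under 0.05 against 30.9% of all rows.
All 3 rows that rose had the poly(A) signal, out of 8 such rows tested, and 0 of the 12 rows without it passed. Hist1h2ae, 1 of the 3, met the filter only through treated groups, and rows of either kind under the filter were not tested. Among the rows tested 5 with the signal and 3 without exceeded a mean of 100, so the kinds also differed in level. These counts are not read as a contrast by signal. The medians of the log2 differences were 0.27 with the signal and 0.32 without. The part of polyadenylation in these values was not tested.

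After 3 days in the spleen set, 2 of 20 rows rose and 0 fell, with 2.82% and 2.74% of all rows rising and falling. Hist1h1c had 1140, 1233, 1265, 1092 and 1112, all above the untreated libraries, with a log2 fold change of 0.63 ± 0.13 (SE) and an adjusted p of 0.0133 (limma). Hist2h2be had 596, 746, 751, 580 and 717, again all above (2.46% of all rows were so and 2.6% all below), with 0.43 ± 0.09 (SE) and an adjusted p of 0.0126 (limma). The 3-day and 1-day comparisons share the 5 untreated libraries, so their agreement on these 2 rows is not independent.
The 3-day replicate 1 library, which lay with the untreated libraries on the second principal component, was at 1140 for Hist1h1c and at 596 for Hist2h2be, above all untreated libraries in both. Without 3-day replicate 3, however, 0 rows passed, with adjusted p of 0.0517 for Hist1h1c and 0.0505 for Hist2h2be from limma. Hist1h2ae had 4.00, 8.73, 13.4, 5.61 and 12.9 and did not pass (log2 difference 1.65, adjusted p = 0.0772, limma). Without 3-day replicate 1 it passed, which made 3 rows.
The median over the 20 rows was 0.22 against 0.00 over all rows tested, and 4 of the 20 had an unadjusted p under 0.05 against 22.0% of all rows. The 8 rows with the poly(A) signal included both that rose, and the 12 without included 0, and the same difference in level applies.

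After 14 days 0 of the 20 rows in the spleen set passed with limma, edgeR or DESeq2, and 0.0% of all rows did so with limma. At an unadjusted p under 0.05 there were 3 histone rows, Hist1h2ae, Hist1h2ag and Hist2h2be, against 2.8% of all rows. Hist1h1c was spread out, at 613, 871, 639, 1068 and 933, and overlapped the untreated libraries. Hist1h2ae had 14.9, 14.1, 13.6, 8.93 and 7.45, with a log2 difference of 2.09 from untreated that did not pass (adjusted p = 1.0, limma). Its 14-day values overlapped the single untreated library at 10.3. With an unadjusted p of at most 0.05 and a change of 1.5-fold or more instead, Hist1h2ae and Hist1h2ag would pass, as did 1.12% of all rows. Without the 14-day libraries the means of these 2 rows, 9.87 and 9.30, were under the filter.
Set against 1 day, 14 days gave 2 rows that were lower and 0 that were higher, with 5.41% and 5.22% of all rows lower and higher. At an unadjusted p under 0.05 there were 5 of the 20, against 25.7% of all rows. Hist1h1c fell by 0.52 on the log2 scale (SE 0.13, adjusted p = 0.0172, limma), and its groups overlapped only because 14-day replicate 4 at 1068 exceeded 2 libraries at 1 day. Hist1h2bg had 0.93, 15.7, 4.54, 13.4 and 2.48 at 14 days and fell by 1.71 (SE 0.47, adjusted p = 0.0259, limma), resting on 1 to 21 whole reads per library. Neither call held without 14-day replicate 1 or without 14-day replicate 3, which lay toward the end of untreated replicates 1 and 3 on the first principal component.

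Hist1h2ac, an H2A gene next to Hist1h2bc, missed the filter in the spleen set with a mean of 7.93 and is described because its groups did not overlap at any time. It was chosen after its values were seen. Untreated libraries had 3.46, 1.88, 0, 2.49 and 0. They were followed by 10.6, 20.6, 10.6, 12.5 and 6.57 at 1 day, by 10.002, 11.4, 14.0, 6.31 and 6.11 at 3 days, and by 4.67, 14.1, 7.57, 10.8 and 4.97 at 14 days. Untreated libraries held 0 to 2 whole reads, those at 1 day 6 to 20, the deeper 3-day libraries 9 to 26 and the 14-day libraries 4 to 17.
With no filter, over 34590 rows, the log2 difference passed at 1 day (2.54 ± 0.47 SE, adjusted p = 0.00296, limma) and at 3 days (2.24, adjusted p = 0.0225, limma) but not at 14 days (2.04, adjusted p = 0.771, limma). Without a filter 3.52% of rows rose at 1 day, 0.922% at 3 days and 0.00289% at 14 days. Among rows past the filter, of which Hist1h2ac is not one, 0.285% had all 14-day libraries above all untreated ones and 0.263% below. The share among rows under the filter was not counted.

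**Figure D3:**
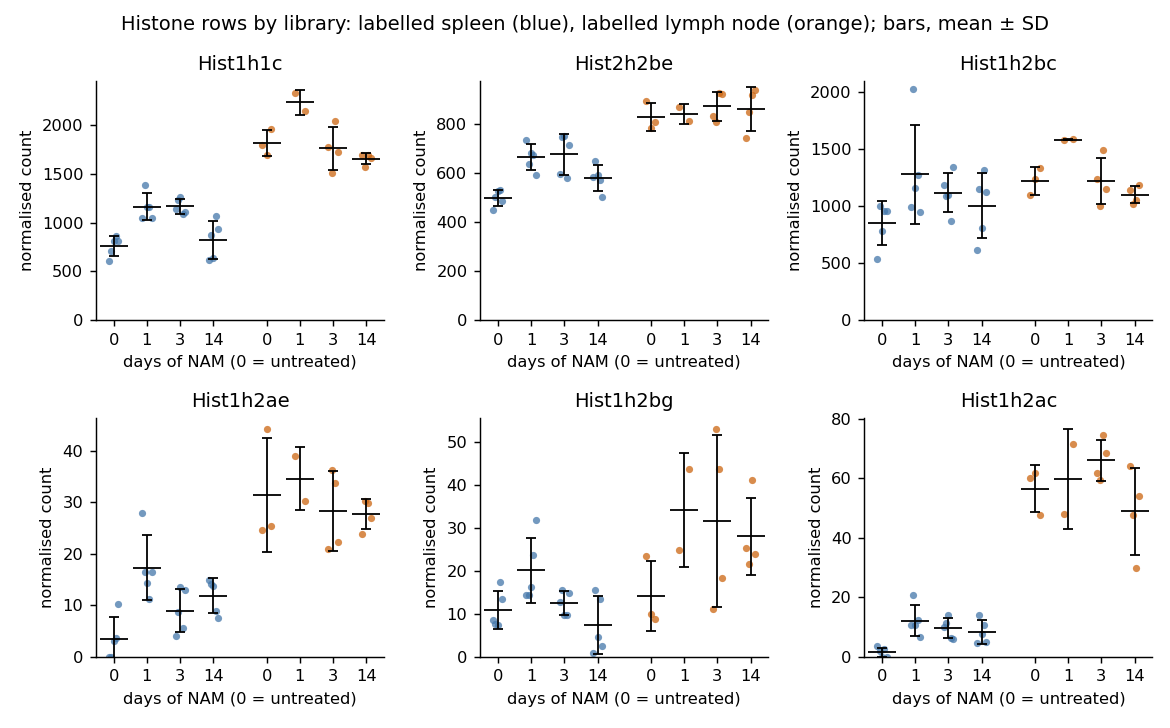
Normalised counts of 6 histone rows in each library against days of NAM (0 = untreated), spleen set in blue and lymph node set in orange, with bars at the mean ± SD. In the spleen set the 1-day and 3-day points of Hist1h1c and Hist2h2be lie above the untreated ones, and the 2 lymph node 1-day points of Hist1h1c and Hist1h2bc lie above their 3 untreated ones.

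In the lymph node set 0 of 32 histone rows passed at any time with limma, edgeR or DESeq2. At 1 day 0.884% of all rows rose and 0.329% fell, at 3 days 0.335% and 0.906%, and at 14 days 0.11% and 0.681% (limma). Histone rows with an unadjusted p under 0.05 numbered 4 at 1 day, 1 at 3 days and 3 at 14 days, against 15%, 14.8% and 11.8% of all rows.
At 1 day both libraries lay above all 3 untreated ones in 8 of the 32 rows and below in 0, against 17.1% and 15.5% of all rows. Hist1h1c had 1804, 1694 and 1960 untreated and 2329 and 2144 at 1 day, with a log2 difference of 0.30 (adjusted p = 0.182, limma). Hist1h2bc had 1093, 1238 and 1330 untreated and 1579 and 1587 at 1 day, with a log2 difference of 0.38 (adjusted p = 0.171, limma). These are the largest values of both rows among the 13 libraries, and neither difference passed with 2 libraries at 1 day.
Hist2h2ac had 5.10, 5.51 and 3.31 untreated and 22.3 and 24.6 at 1 day (log2 difference 2.14, adjusted p = 0.290, limma), and its mean over the set, 10.3, was 7.89 without the 1-day libraries and so under the filter. Replicate 1 at 1 day was the highest library in 9 of the 32 rows, and the summed level of 8 pancreas markers was 112597 in the higher 1-day library against 1196 to 1268 in the untreated ones. The part of other tissue in that library was not tested.

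At 3 and 14 days the median log2 differences over the 32 rows were 0.09 and -0.14. Hist1h4k had 78.6, 70.6 and 64.1 untreated and 118, 81.4, 126 and 98.5 at 3 days, all above, with a log2 difference of 0.55 (adjusted p = 0.258, limma). It was 1 of 2 rows with all 3-day libraries above, against 8.09% of all rows, and 0 rows lay below, against 7.25%. The other, Hist1h2bn, had a mean of 10.3 over the set and of 9.39 without the 3-day libraries, under the filter.
At 14 days Hist1h2bk had 24.5, 13.2 and 18.8 untreated and 6.34, 12.1, 0 and 3.99 treated (log2 difference -2.04, adjusted p = 0.200, limma). Hist1h4i had 364.4, 396 and 414 untreated and 337, 363.7, 321 and 315 treated (log2 difference -0.23, adjusted p = 0.407, limma), so its groups were only just apart. With an unadjusted p of at most 0.05 and a change of 1.5-fold or more, Hist1h2bg and Hist1h2bk would pass at 14 days and Hist1h2bg and Hist2h2ac at 1 day, 2 rows each, against 3.46% and 4.91% of all rows. Hist1h2bk and Hist1h4i were the 2 rows with every 14-day library below every untreated one, against 6.02% of all rows, and 1 row lay above, against 5.49%. Between 14 and 3 days 0 histone rows and 0.011% of all rows passed in either direction with limma, and 2 histone rows had an unadjusted p under 0.05, against 5.84% of all rows.
Hist2h2be, which rose in the spleen set, had 894, 784 and 810 in untreated libraries of this set. Its 2 libraries at 1 day had 815 and 872, those after 3 days lay between 810 and 927, and the 14-day libraries lay between 742 and 938. Hist1h2ae ran from 24.5 to 44.1 untreated and from 20.99 to 38.9 in all treated libraries. Whether the response differs between the labels was not tested.

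**Figure D4:**
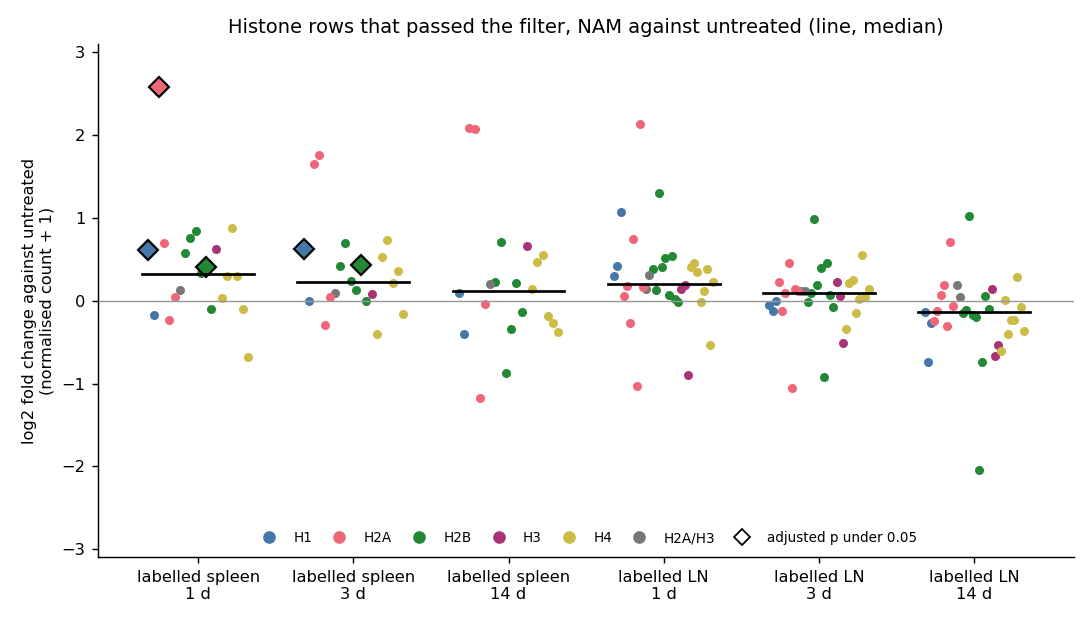
Log2 fold change against untreated, on normalised count + 1, of the histone rows that passed the filter, 20 per comparison in the spleen set and 32 in the lymph node set; colours give the type, diamonds an adjusted p under 0.05 and black lines the median. Diamonds occur at 1 day (3) and 3 days (2) in the spleen set and nowhere else.

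Sums were taken over the rows of each type, and the H1 sum in the spleen set mostly gives the single row Hist1h1c. Untreated libraries had H1 sums of 623 to 893. The sums were 1065 to 1447 after 1 day and 1111 to 1298 after 3 days, without overlap with untreated, and the 14-day libraries had 619 to 1099. The other H1 row tested, Hist1h1e, had 12.1 ± 2.76 untreated and 11.3 ± 4.58 (SD, n = 5) after 1 day and did not pass (log2 difference -0.18, adjusted p = 0.779, limma). The H2B sum ran from 1271 to 1707 untreated and from 1804 to 2960 at 1 day, also without overlap, whereas at 3 days it ran from 1670 to 2329 and overlapped.
The H2A sum overlapped, at 954 to 1188 untreated and 760 to 1297 at 1 day, but most of it was the row Trim17 // Hist3h2a. Over H2A rows of 1 symbol the sums were 256 to 522 untreated and 161 to 560 at 1 day, and these rest largely on Hist2h2aa2, whose reads cannot be told from its copy. In both sets the mean H2A sum at 1 and 3 days was above untreated with the Trim17 row and below it without, so no direction is given for H2A. H3 sums were low, at 38.6 to 69.3 untreated and 40.4 to 83.6 at 1 day. H4 sums were 248 to 298 untreated and 231 to 556 at 1 day, where replicate 2 was the highest. These sums were described and not tested.
In the lymph node set the H1 sum was 1733 to 1978 untreated and 2192 to 2398 at 1 day, and the H2B sum 2312 to 2488 and 2762 to 2826. H4 sums at 1 day, 631 and 659, were also above the untreated range of 541 to 594. The H3 sum was 75.5 to 105 untreated and 41.2 to 66.9 at 14 days, with no overlap. Of its 9 rows 3 were tested, and 0 passed with limma. The untested row Hist1h3g, named after its values were seen, had 9.95 to 17.6 untreated and 2.00 to 4.32 at 14 days.

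**Figure D5:**
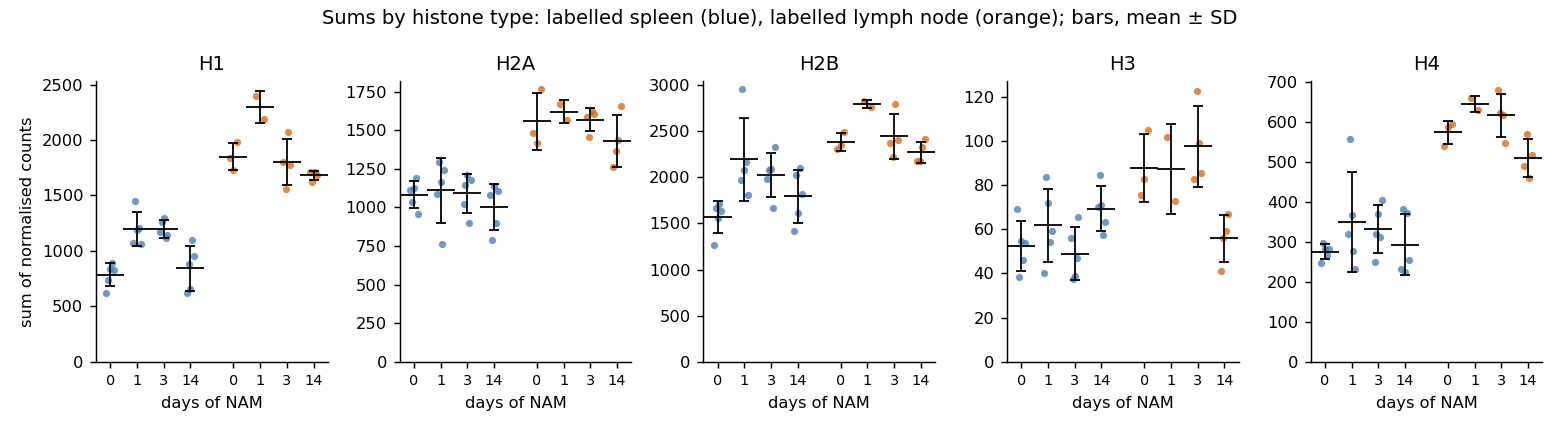
Sum of normalised counts over the rows of each histone type in each library against days of NAM (0 = untreated), spleen set in blue and lymph node set in orange, bars at the mean ± SD; the joined H2A and H3 rows are left out. The H1 sums at 1 and 3 days in the spleen set all lie above the untreated range of 623 to 893.

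Between the labels no test was made, because the libraries were scaled separately. The filter was met by 20 histone rows in both labels and by 12 in the lymph node set alone, whose direction the filter fixed. Of the 20, 17 had the higher mean in the lymph node set, against 58% of 17147 rows, and the median log2 ratio was 0.31 against 0.15. Every library labelled lymph node lay above every library labelled spleen in 4 of the 20 and below in 0, against 19.1% and 13.1% of these rows. Hist1h4i had a log2 ratio of 1.34, and Hist1h4h went the other way at -1.75. Among the 12, Hist1h2ac had means of 7.93 in the spleen set and 57.6 in the lymph node set.

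Most genes of S phase did not pass in the spleen set. Of 30 S phase and DNA replication genes 1 rose and 1 fell after 1 day, against 8.56% and 8.05% of all rows, with a median log2 difference of -0.03. Rfc4, a clamp loader subunit, rose by 0.67 (adjusted p = 0.00398, limma), and E2f1, a transcription factor of the G1 to S transition, fell by 0.52 (adjusted p = 0.00728, limma). The same genes were called after 3 days, against 2.82% and 2.74% of all rows, and the median was -0.09. After 14 days 0 of 30 passed, as did 0.0% of all rows.
The replication clamp gene Pcna had 4307 ± 521 (SD, n = 5) normalised counts untreated and 4741 ± 440 (SD, n = 5) after 1 day. Rrm2, a subunit of ribonucleotide reductase, had 575 ± 32.9 and 655 ± 111 (SD, n = 5), and neither gene passed. Of 25 genes of G2 and mitosis 0 passed against untreated under either label (limma), with medians of -0.04, -0.16 and 0.02 at 1, 3 and 14 days in the spleen set. Of all rows in that set 8.56% rose and 8.05% fell at 1 day, 2.82% and 2.74% at 3 days and 0.0% at 14 days. In the lymph node set these shares were 0.11% to 0.906%. Mki67, a proliferation marker, had 530 ± 87.4 untreated and 572 ± 77.2 (SD, n = 5) after 1 day, and Top2a, a mitotic topoisomerase, 907 ± 73.9 and 1026 ± 104 (SD, n = 5).
In bulk RNA, fewer cells of a type and less RNA per cell cannot be told apart. The part of proliferation in the histone values was not tested.

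In the lymph node set a few S phase genes fell at 3 and 14 days, and 0 histone rows passed at these times with limma. At 3 days 3 of 30 fell, the origin factors Cdc6 and Orc1 and the reductase gene Rrm2, by 0.71, 0.88 and 0.72 on the log2 scale, and 0.906% of all rows fell. At 14 days 3 of 30 fell, Ccne1, Orc1 and Rrm2, by 0.71, 0.95 and 0.69, and 0.681% of all rows fell. Medians over the list were -0.22, -0.24 and -0.33 at 1, 3 and 14 days, and those of the G2 and mitosis list were -0.13, -0.29 and -0.35.

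Among 20 factors that make, end and degrade histone mRNA, 2 rose and 4 fell after 1 day in the spleen set, against 8.56% and 8.05% of all rows. Those that rose were the 3' exonuclease Eri1 (0.31) and the U7 snRNP protein Lsm10 (0.37). Those that fell were Pou2f1, the octamer factor (-0.87), Cstf2, in a row joined with Mir3112 (-0.30), and Sympk (-0.18) of the cleavage complex, and the decay helicase Upf1 (-0.21). Slbp had 1110 ± 63.5 untreated and 1205 ± 165 (SD, n = 5) after 1 day, Npat 1164 ± 91.9 and 1088 ± 89.1 (SD, n = 5), and neither passed. After 3 days Sympk alone passed (-0.20), 1 of 20, against 2.74% of all rows that fell. In the lymph node set 0 of 20 passed against untreated (limma), where 0.11% to 0.906% of all rows rose or fell.
Of 17 chaperones and acetylation factors that handle new histones, 5 rose and 0 fell after 1 day in the spleen set, against 8.56% and 8.05% of all rows. After 3 days 3 rose and 0 fell, against 2.82% and 2.74%. Rbbp4, a histone-binding subunit shared by several chromatin complexes, went from 6669 ± 528 to 10029 ± 1001 (SD, n = 5) at 1 day, a log2 fold change of 0.59 (adjusted p = 0.00321, limma). Its relative Rbbp7 (0.45) and the H3 and H4 chaperones Asf1a (0.32), Daxx (0.38) and Hira (0.50) were the others, and Asf1a, Hira and Rbbp4 also passed at 3 days. In the lymph node set 0 of 17 passed against untreated (limma), where 0.11% to 0.906% of all rows rose or fell.
Variant histones, which are mostly made from polyadenylated mRNA and not only in S phase, for the most part did not pass. H2afz, the gene of H2A.Z, rose after 3 days in the spleen set, from 1971 ± 270 to 2994 ± 592 (SD, n = 5; log2 0.59, adjusted p = 0.0347, limma), as 1 of 11 tested, against 2.82% of all rows. At 1 day 0 of 11 passed in that set, against 8.56% and 8.05% of all rows that rose and fell. H2afz stood at 2625 ± 582, H3f3b, an H3.3 gene, at 19694 ± 3031 against 21396 ± 2651 and H2afx at 2305 ± 373 against 2522 ± 385 untreated (SD, n = 5 each). Cenpa, the centromeric H3, fell in the lymph node set by 0.44 at 3 days and 0.38 at 14 days (adjusted p = 0.0119 and 0.0453, limma). It was 1 of 11 tested at each time, against 0.906% and 0.681% of all rows that fell.

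Transcripts known to lack a poly(A) tail or to stay in the nucleus were also counted. Of 14 listed, 10 were in the table and 5 passed the filter in the spleen set and 6 in the lymph node set, and 0 passed the test against untreated (limma). Of all rows in the spleen set 8.56% rose and 8.05% fell at 1 day, 2.82% and 2.74% at 3 days and 0.0% at 14 days. The lymph node shares were 0.11% to 0.906%. Median log2 differences of the listed transcripts at 1, 3 and 14 days were -0.19, 0.18 and 0.08 in the spleen set and 0.11, -0.17 and 0.02 in the lymph node set. Their summed level ran from 17365 to 26895 untreated and from 15622 to 26954 at 1 day in the spleen set. The part of library preparation in the histone values was not tested.

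Some markers of other cells passed the test, and the shares of all rows that rose and fell at 1 day in the spleen set were 8.56% and 8.05%. In the spleen set at 1 day the summed level of 8 myeloid precursor markers ran from 119 to 769 untreated and from 409 to 4227 treated, with 1 of 7 tested called higher (Ltf, 2.08). Of 8 adipocyte markers 1 rose (Retn, 1.61), and the median log2 difference over the 8 was 0.98. The summed level of the adipocyte markers ran from 32476 to 178100 untreated and from 106188 to 459370 treated. Of 10 erythroid markers tested 1 rose (Tspan33, 0.43) and 2 fell (Tal1, -0.83, and Hemgn, -0.75). Of 8 germinal centre markers 2 rose (Fas, 0.31, and S1pr2, 0.35) and 1 fell (Mef2b, in a row joined with Borcs8, -0.27). Of 7 plasma cell markers 1 rose (Xbp1, 0.33) and 1 fell (Irf4, -0.44). Among 4 spleen markers tested of 7 listed Vcam1 rose by 0.64, and among 6 lymph node markers listed Madcam1 fell by 0.69. The summed levels of both lists overlapped between the groups. Of the megakaryocyte markers 0 of 4 and of the pancreas markers 0 of 2 passed (limma).
At 3 days in that set Fas (0.37) and Vcam1 (0.37) rose and Prdm1 (-0.47) and Madcam1 (-0.89) fell, from the same lists. Of all rows 2.82% rose and 2.74% fell. At 14 days 0 of these markers and 0.0% of all rows passed (limma).
In the lymph node set 17 of 18 erythroid markers fell at 3 days and 6 of 18 at 14 days, with median log2 differences of -3.17 and -1.96, against 0.906% and 0.681% of all rows that fell. The untreated libraries had summed levels of 26455 to 36916, and the 2 libraries at 1 day had 18629 and 23689. After 3 days the sums were 3285 to 13696, and the 14-day libraries had 10699 to 16453. At 14 days 3 of 8 myeloid precursor markers fell, Mpo the most (-1.59), and 1 of 7 spleen markers, Hmox1 (-0.79). At 1 day Ccl21a of 6 lymph node markers listed (0.90) and Mef2b of 8 germinal centre markers (0.39) rose, against 0.884% of all rows. The part of cell composition in the histone values was not tested.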

How the data were processed

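RNA libraries of tumour-free C57Bl/6 mice given NAM or left untreated were prepared from poly(A) RNA and sequenced as paired reads of 75 bases. The authors deposited a single table of signal values per gene, namely read counts divided by DESeq2 size factors, and its header names mm10. Submitters' notes name STAR 2.4.0, and the study's methods, written for other sets, give counting on constitutive gene regions. Strand use is not stated, and reads of near-identical or overlapping genes can be shared.

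Groups came from sample titles, with 0 per-library columns left unmapped. In each library 100% of values came out whole (tolerance 0.1) when divided by the value of 1 read, which gave the depth. Rows with a mean of 10 or more were tested as log2(value + 1) with limma 3.58.1 in R 4.3.3 (intensity trend, all groups of a label in 1 fit, two-sided, Benjamini-Hochberg adjustment over all rows tested, threshold 0.05). Fold changes on this scale understate low rows. Scripts were tested on simulated data. Alternatives were other pseudocounts, filters, scalings and library weights, thinning to equal depth, edgeR 4.0.16 and DESeq2 1.42.0 on the whole reads, and leaving out each library. At 1 day in the spleen set limma called 3030 rows in all, edgeR 2976 and DESeq2 3368. Transcript features came from GENCODE M21 (GRCm38) and promoters from RefSeq.

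Rows named are the highest row per kilobase of each type, up to 5 rows past the threshold per comparison, the testis members, set cell cycle and histone processing genes, and listed genes past the threshold. Where 5 or fewer passed, all were named, and rows that did not pass were added for their values. The members and lists were chosen with earlier results of these data known.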

Additional observations from a re-analysis of the deposited data

Results flagged for a closer look

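The values of 18 histone rows and sums were examined in the groups of 4 or 5 libraries, 108 groups in all, for a single library whose gap to the nearest other exceeded Dixon's 95% critical value. Chance alone would flag about 1 in 20 such groups, and 4 were flagged. In the spleen set Hist3h2ba, an H2B gene, was 92.685 in 3-day replicate 1, where the other 4 libraries had 128 to 140. The same library had 1158.233 for the joined row Hist2h2aa1 // Hist2h3c1, against 857 to 918 in the others. In the lymph node set Hist2h2aa2 was 92.729 in 14-day replicate 1, against 163 to 169. The sum of the rows Hist2h2aa2 and Hist2h2aa1 // Hist2h3c1 was 1877.972 in spleen 1-day replicate 2, against 1087 to 1200. None of these rows passed a test between groups with limma.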

How the results depend on the processing

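The 3 rows called at 1 day in the spleen set numbered 2 to 4 under all 23 alternatives and 3 without each library in turn. At 3 days, where 2 were called, a fit of the 2 groups only gave 1 and library weights gave 5, and leaving out a library gave 0 to 3, with 0 without 3-day replicate 3. At 14 days the rule of unadjusted p and 1.5-fold gave 2 in the spleen set, and it gave 2 each at 1 and 14 days in the lymph node set, where every other alternative gave 0. For 14 days against 1 day, where 2 were called, no filter, a filter of 50, thinned reads and edgeR on the reads each gave 1, the 2 groups alone gave 0, and leaving out a library gave 0 to 2 (0 without 14-day replicate 1 or 3, 1 without 14-day replicate 5 or 1-day replicate 4 or 5). The cause was not tested. No called row changed direction.

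Deviations of same-numbered libraries had r from -0.50 to 0.47 over 30 spleen pairs, with 13 pairs over 0.1. Their median was 0.036, against -0.008 for other pairs. In the lymph node set r ran from -0.11 to 0.08 over 16 pairs. These values do not settle whether the numbers pair the libraries. With the replicate number as a block, 4 rows passed at 1 day, 2 at 3 days, 0 at 14 days and 2 for 14 days against 1 day in the spleen set, and 0 in the lymph node set.

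Type sums moved under TMM scaling for H1 at 14 days (1748.868), H2B at 1 day (2887.986) and H4 at 1 day (666.796) in the lymph node set. With rows of 1 symbol only, the untreated H2A mean was 351.979 in the lymph node set and 358.399 in the spleen set. After 1, 3 and 14 days it was 262.465, 265.556 and 275.471 in the former and 357.67, 338.4 and 300.573 in the latter. At 1 and 3 days these means lay below untreated, by little at 1 day in the spleen set, whereas with the Trim17 row they lay above. The libraries overlapped in every case, so no direction is given for H2A. Summing the rows Hist2h2aa2 and Hist2h2aa1 // Hist2h3c1 as 1 row, chosen after seeing the data, left every count of called rows as it was. Few reads limit rows such as Hist1h2ae, and 42 of 62 rows in the spleen set and 30 in the lymph node set could not be tested with the filter.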
